A study of Mus musculus with 23 samples.

Results

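*Pecam1*, *Cdh5*, *Kdr*, *Flt1*, *Tek*, *Plvap*, *Esm1*, *Angpt2*, *Vegfa* and *Lyve1*, 10 of the 55449 genes of the count table, are genes of blood and lymph vessels or of their growth. They were chosen by symbol, and all 10 passed the filter on low counts in every comparison. RNA was sequenced in bulk from the colon of 23 samples of male C57BL/6 mice of genotype Cdx2Apc f/w, 6 to 8 weeks old at the start and fed a high-fat diet (HFD). In these mice, CDX2-cre deletes 1 floxed *Apc* allele in *Cdx2*-expressing epithelium of the intestine, not in vessels, and the controls carry the deletion too. All mice were colonized after antibiotic water with *Bacteroides fragilis* 638R, either BF BSHlow (BF638R bsh-, low bile salt hydrolase activity, carrying an empty vector) or BF BSHhigh (BF638R bsh+, overexpressing the bile salt hydrolase gene of another *B. fragilis* strain). Normal colon was taken at 2 weeks (4 samples per strain), and non-tumor (NT) and tumor (T) tissue at 12 weeks (4 NT and 4 T samples for BF BSHlow, 4 NT and 3 T samples for BF BSHhigh). In the count table the 3 columns taken as BF BSHhigh tumors carry headers that repeat the names of BF BSHlow tumors 1 to 3, so their labels there go against this group. They were assigned as a group, because the table names no other column for BF BSHhigh tumors and a supplementary table of the study lists these counts under that group, and they are called a, b and c. Every value for BF BSHhigh tumors rests on this assignment. The labels do not say whether the samples of a group came from separate mice or whether a tumor and an NT sample share a mouse. The study calls its 12-week samples independent but also writes of pooled samples, without saying what was pooled. The p-values therefore measure the spread between these samples.

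Vessels are lined by endothelial cells, which are held together by junction proteins such as PECAM1 and VE-cadherin (*Cdh5*). They grow in answer to VEGF-A (*Vegfa*), which signals through VEGFR2 (*Kdr*), while VEGFR1 (*Flt1*) also binds the ligand and acts largely as a decoy. The angiopoietins act on the receptor TIE2 (*Tek*): angiopoietin-1 keeps vessels stable, and angiopoietin-2 (*Angpt2*), made by the endothelium itself, loosens them where vessels sprout. *Esm1* encodes endocan, a marker of sprouting tip cells, *Plvap* a protein of the diaphragms of fenestrated capillaries, which are common in the gut, and *Lyve1* a hyaluronan receptor of lymphatic endothelium and of some tissue macrophages.

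Values are CPM, counts scaled to library size, on 1 TMM scale over the 23 libraries, whose total counts were between 12401388 and 17903008 (median 15874872). The 20 pan-endothelial genes used to check for endothelium had a mean of at least 1 count in every group. Their summed level was 60.3 to 138 CPM at 2 weeks, 148 to 269 CPM in NT and 450 to 521 CPM in T. A few genes weigh heavily in these sums. *Sox17* and *Ecscr* had means of 1.18 and 12.1 CPM in BF BSHlow NT and of 73.0 and 105 CPM in BF BSHlow T. *Clec14a* had means of 29.5 CPM (BF BSHlow) and 38.5 CPM (BF BSHhigh) at 2 weeks, and of 7.47 CPM in BF BSHlow T. Replicate 3 of the 2-week BF BSHlow group stood apart with 138 CPM, since the other 7 samples of 2 weeks did not exceed 92.0 CPM. In bulk RNA, fewer cells of a type and less RNA per cell cannot be told apart.

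Levels of different genes were compared per kilobase of exon (CPM per kb). In BF BSHlow NT tissue the highest were *Vegfa* (13.01 ± 2.17, SD), *Plvap* (12.6 ± 2.56), *Lyve1* (8.103 ± 0.889) and *Pecam1* (5.65 ± 1.44), and the lowest were *Angpt2* (0.902 ± 0.234) and *Esm1* (0.627 ± 0.598). *Vegfa* and *Plvap* differed by less than their spread, and so did neighbors in the order *Kdr*, *Tek*, *Flt1*, *Angpt2* and *Esm1*. In BF BSHlow T tissue the order was *Plvap* (26.3 ± 3.73), *Vegfa* (17.1 ± 7.65), *Angpt2* (16.8 ± 3.203), *Esm1* (14.4 ± 9.95) and *Cdh5* (13.8 ± 0.368), and *Kdr* (1.897 ± 0.432) and *Tek* (1.42 ± 0.485) were lowest. By group means *Angpt2* thus moved from rank 9 to rank 3 of the 10 genes and *Lyve1* from rank 3 to rank 7. In T the neighbors from *Vegfa* to *Cdh5* differed by less than their spread, and so did *Lyve1* (4.76 ± 2.67) and *Flt1* (3.34 ± 0.846). The exact ranks in T are therefore not resolved.

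**Figure D1:**
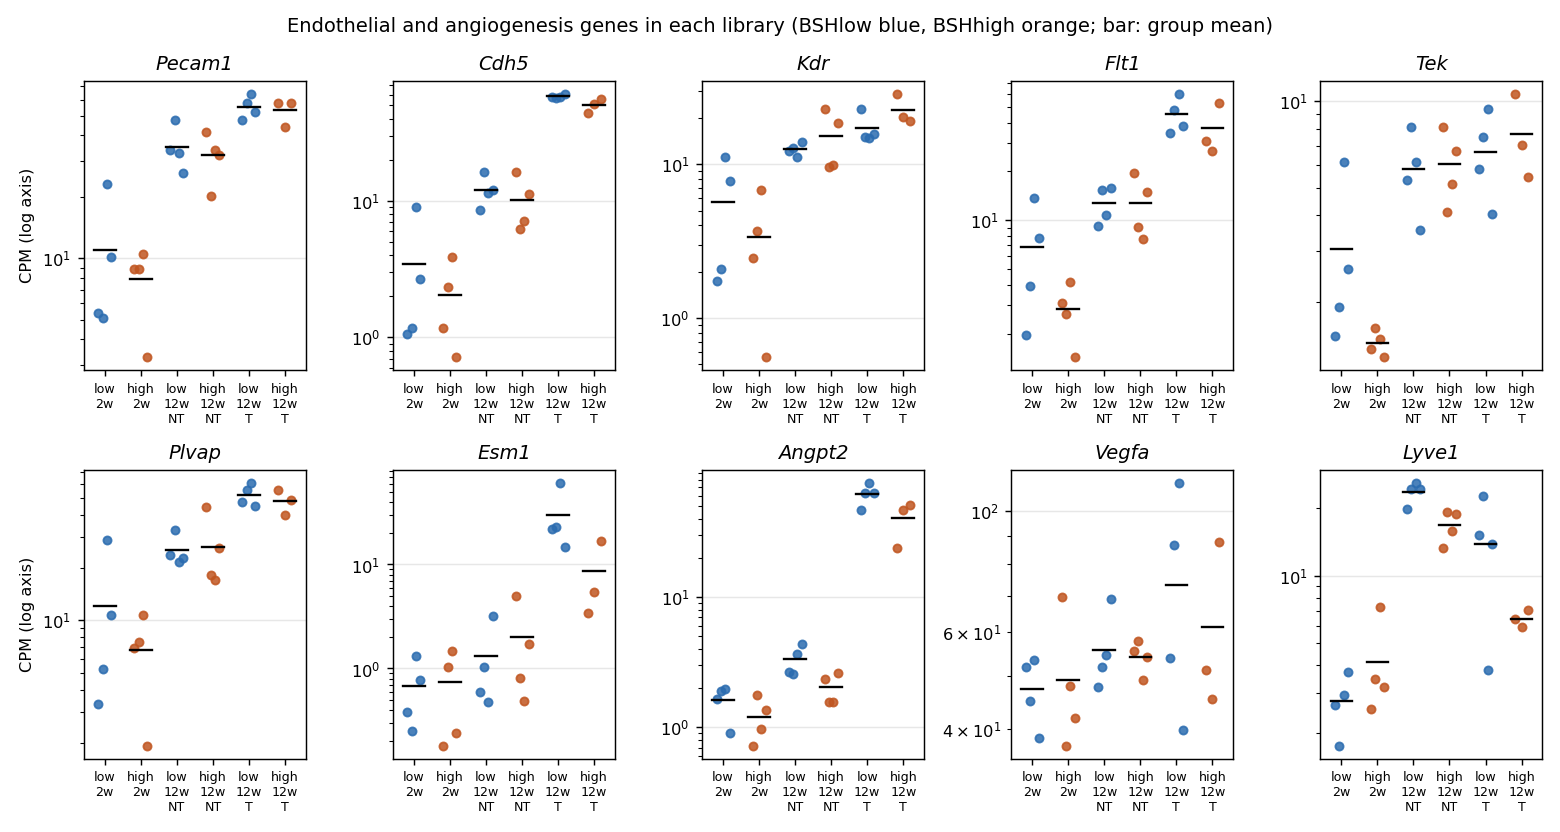
CPM (log axis, with a scale of its own for each gene) of the 10 genes in each of the 23 libraries, by group, with bars at the group means. *Cdh5*, *Angpt2* and *Flt1* lie above all NT samples in all tumors, *Lyve1* is highest in NT tissue, and *Vegfa* has overlapping values in all groups.

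Whether the vessel genes differed between tumors and NT tissue was asked for each strain. In BF BSHlow mice 6 of the 10 genes were higher in T than in NT at an adjusted p under 0.05 in edgeR (*Angpt2*, *Esm1*, *Cdh5*, *Flt1*, *Plvap* and *Pecam1*) and 0 were lower, where 65.5% of all genes tested were called and 33.3% were called higher. In BF BSHhigh mice the same 6 genes were higher and *Lyve1* was lower, where 56.6% of all genes were called, 29.4% higher and 27.2% lower. The median log2 fold change of the 10 genes was 0.84 for BF BSHlow and 0.79 for BF BSHhigh, and that of all 16454 genes tested was 0.04 in both. With an absolute log2 fold change over 1 asked for as well, 5 of the 10 genes were called for each strain, against 36.2% and 29.4% of all genes. Most genes differed between the tissues, so a call alone sets no gene apart, and the sizes are given below. Smooth muscle genes moved with tissue too: 8 of 8 were lower in T for both strains (medians −4.80 and −4.23), with a summed level of 1702 to 9169 CPM in NT and 243 to 413 CPM in T. Their part in the vessel results was not tested.

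*Angpt2* (chr8:18690263-18741562, minus strand, GRCm38), the TIE2 ligand of sprouting vessels, had the largest fold change with a small spread. In BF BSHlow mice it was at 2.67, 2.58, 3.68 and 4.39 CPM in NT (replicates 1 to 4, as in the lists that follow) and at 46.6, 62.7, 75.5 and 63.2 CPM in T. In BF BSHhigh mice it was at 2.37, 1.56, 1.58 and 2.62 CPM in NT and at 23.9, 46.6 and 51.3 CPM in T (a, b and c). Every tumor was above every NT sample, by 18.3-fold for BF BSHlow (log2 fold change 4.20, SE 0.28, adjusted p = 3.26e-08) and 20.02-fold for BF BSHhigh (log2 fold change 4.32, SE 0.30, adjusted p = 1.73e-07). *Angpt2* lies within the gene *Mcph1* on the opposite strand, with 0 exon bases in common. *Mcph1*, which acts in chromosome condensation, was also higher in T, with log2 fold changes of 0.94 and 0.68.

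*Esm1* (chr13:113209659-113218098, plus strand), the tip cell marker, was at 0.593, 1.03, 0.477 and 3.16 CPM in BF BSHlow NT and at 21.8, 23.2, 60.9 and 14.6 CPM in BF BSHlow T. In BF BSHhigh mice it was at 4.998, 0.809, 0.485 and 1.72 CPM in NT and at 3.41, 5.49 and 16.9 CPM in T. The BF BSHlow groups did not overlap, and the fold was 22.1 (log2 fold change 4.47, SE 0.83, adjusted p = 0.000278), while the BF BSHhigh groups overlapped, with a fold of 4.28 (log2 fold change 2.10, SE 0.80, adjusted p = 0.0362). Without NT replicate 4 the log2 fold change for BF BSHlow was 5.38, and without T replicate 3 it was 3.87. The call for BF BSHhigh was lost without tumor c (1.15, adjusted p = 0.268 in edgeR), without NT replicate 2 (1.83, adjusted p = 0.0897), NT replicate 3 (1.77, adjusted p = 0.0864) or NT replicate 4 (2.03, adjusted p = 0.0736). Without NT replicate 1 the value was 3.11. It was also lost with limma-voom (2.31, adjusted p = 0.0839).

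The junction genes moved unequally. *Cdh5* (chr8:104101625-104144511, plus strand) was at 8.595, 16.1, 11.4 and 12.00 CPM in BF BSHlow NT and at 57.7, 56.9, 57.5 and 60.4 CPM in BF BSHlow T. In BF BSHhigh mice it was at 16.3, 6.22, 7.09 and 11.3 CPM in NT and at 44.3, 50.9 and 55.5 CPM in T. The tumors of both strains lay in a narrow range far above NT, by 4.77-fold (log2 fold change 2.25, SE 0.25, adjusted p = 2.71e-06) and 4.901-fold (log2 fold change 2.29, SE 0.26, adjusted p = 7.81e-06). *Pecam1* (chr11:106654217-106750628, minus strand) was at 34.1, 47.5, 32.98 and 26.1 CPM in BF BSHlow NT and at 47.9, 57.7, 63.8 and 51.96 CPM in T, with tumor replicate 1 only just above NT replicate 2. In BF BSHhigh mice it was at 41.8, 20.3, 33.8 and 32.1 CPM in NT and at 57.9, 43.97 and 57.6 CPM in T. The *Pecam1* groups did not overlap for either strain, with folds of 1.56 (log2 fold change 0.64, SE 0.20, adjusted p = 0.0112) and 1.65 (log2 fold change 0.73, SE 0.21, adjusted p = 0.0097). In a fit of all 23 libraries, which share 1 estimate of the spread, the *Pecam1* call was lost for both strains (adjusted p = 0.114 and 0.108). The count of *Cdh5* per count of *Pecam1* was 0.252 to 0.459 in BF BSHlow NT, 0.210 to 0.390 in BF BSHhigh NT, 0.902 to 1.21 in BF BSHlow T and 0.765 to 1.16 in BF BSHhigh T, so that NT and T did not overlap. This ratio and those below were chosen after the values were seen and carry no test.

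*Plvap* (chr8:71497765-71511752, minus strand), the diaphragm gene, was at 23.5, 32.6, 21.5 and 22.8 CPM in BF BSHlow NT and at 47.5, 55.4, 60.97 and 44.8 CPM in T. In BF BSHhigh mice it was at 44.2, 18.05, 17.1 and 25.9 CPM in NT and at 55.6, 40.2 and 48.5 CPM in T, where NT replicate 1 exceeded tumor b. The folds were 2.06 (log2 fold change 1.04, SE 0.25, adjusted p = 0.00209) and 1.82 (log2 fold change 0.86, SE 0.26, adjusted p = 0.0124). The call for BF BSHhigh was lost without tumor a (log2 fold change 0.75, adjusted p = 0.0526 in edgeR), and in the fit of all 23 libraries the call was lost for both strains (adjusted p = 0.0519 and 0.139).

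**Figure D2:**
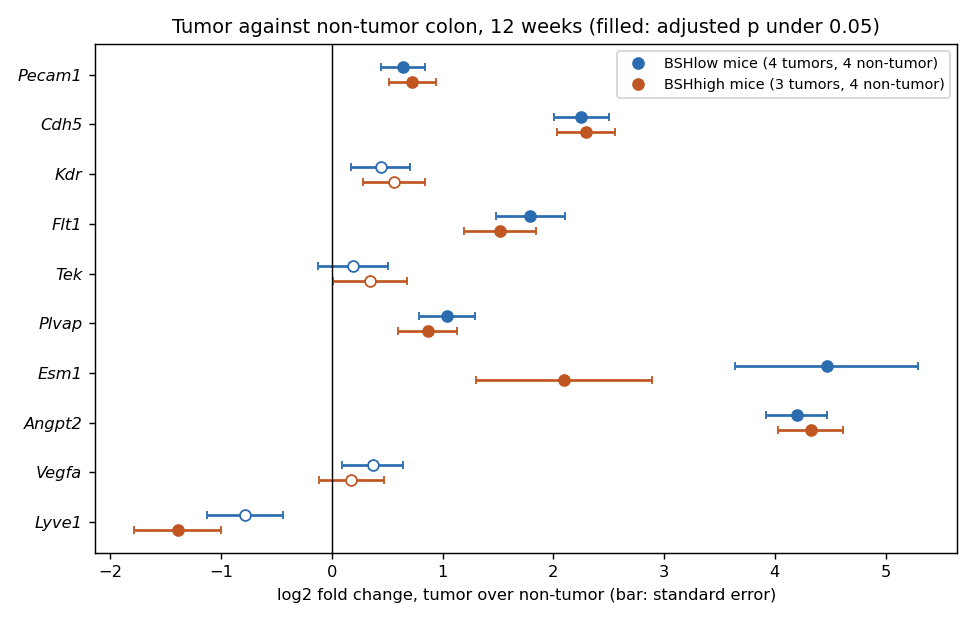
Log2 fold change of T over NT (horizontal axis) for each of the 10 genes in BF BSHlow and BF BSHhigh mice, with standard errors as bars and filled points where the adjusted p was under 0.05. *Angpt2* is above 4 in both strains, *Esm1* has the widest bars, and *Kdr*, *Tek* and *Vegfa* are open in both.

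The receptor genes differed among themselves. *Flt1* (chr5:147561604-147726011, minus strand), the decoy receptor, was at 9.26, 15.4, 10.8 and 15.8 CPM in BF BSHlow NT and at 34.4, 48.1, 59.9 and 38.1 CPM in T. In BF BSHhigh mice it was at 19.6, 9.15, 7.695 and 14.9 CPM in NT and at 30.7, 26.8 and 53.00 CPM in T. All tumors were above all NT samples of their strain, by 3.47-fold (log2 fold change 1.79, SE 0.31, adjusted p = 0.000149) and 2.86-fold (log2 fold change 1.52, SE 0.32, adjusted p = 0.0012). *Kdr* (chr5:75932827-75978458, minus strand), the signalling receptor on the same chromosome, was at 12.2, 12.8, 11.1 and 13.9 CPM in BF BSHlow NT and at 22.95, 15.03, 14.8 and 15.7 CPM in T. In BF BSHhigh mice *Kdr* was at 22.9, 9.58, 9.82 and 18.6 CPM in NT and at 28.5, 20.2 and 19.1 CPM in T. The BF BSHlow groups of *Kdr* did not overlap, but neither difference passed the test (log2 fold change 0.44, SE 0.26, adjusted p = 0.154, and log2 fold change 0.56, SE 0.28, adjusted p = 0.0994). Without NT replicate 1, which at 22.9 CPM was within the range of the tumors, *Kdr* passed in BF BSHhigh mice (0.82, adjusted p = 0.0182 in edgeR), as it did with limma-voom (0.65, adjusted p = 0.0445). The count of *Flt1* per count of *Kdr* was 0.758 to 1.20 in BF BSHlow NT and 1.498 to 4.04 in BF BSHlow T, 0.784 to 0.955 in BF BSHhigh NT and 1.08 to 2.78 in BF BSHhigh T, where tumor a had the lowest value.

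*Tek* (chr4:94739289-94874976, plus strand), the angiopoietin receptor, was at 5.34, 8.13, 6.13 and 3.55 CPM in BF BSHlow NT and at 5.79, 7.49, 9.39 and 4.05 CPM in T. In BF BSHhigh mice it was at 8.12, 4.11, 5.15 and 6.73 CPM in NT and at 10.6, 7.05 and 5.43 CPM in T. The groups overlapped in both strains (log2 fold change 0.19, SE 0.31, adjusted p = 0.606, and log2 fold change 0.35, SE 0.34, adjusted p = 0.399). Receptor and ligand thus parted: the count of *Angpt2* per count of *Tek* was 0.317 to 1.24 in BF BSHlow NT and 8.04 to 15.6 in BF BSHlow T, and 0.292 to 0.389 in BF BSHhigh NT and 2.26 to 9.45 in BF BSHhigh T. Against *Angpt1*, the stabilizing ligand, the count of *Angpt2* was 1.22 to 2.25 times as high in BF BSHlow NT and 25.7 to 67.9 times in BF BSHlow T, and 1.23 to 2.19 times in BF BSHhigh NT and 6.91 to 32.6 times in BF BSHhigh T. *Angpt1* itself was low, with group means of 1.28 to 2.35 CPM at 12 weeks, and did not pass the test (log2 fold changes −0.58 and 0.87). *Angpt2* was not the only angiopoietin gene with higher values in T. *Angpt4* had means of 0.269 CPM in BF BSHlow NT and 6.52 CPM in T (log2 fold change 4.52, adjusted p = 1.09e-05 in edgeR). In BF BSHhigh mice the means of *Angpt4* were 0.609 CPM in NT and 15.7 CPM in T.

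The stretch before the transcription start is shown for *Flt1* and *Esm1*, which were higher in T, and for *Kdr* and *Tek*, which did not pass the test, so that receptors with unlike values can be set side by side. RefSeq windows on GRCm38.p6 were at hand for 5 of the 10 genes, and those printed cover the 250 bases before the start, on the strand of the gene. Capitals mark matches, on either strand, to the GC box GGGCGG, the ETS core CCGGAA, the hypoxia response core ACGTG, the TATA box TATAAA and the E-box CAGCTG, none of which overlapped another here. The windows are chr5:147726012-147726261 (minus strand) for *Flt1*, chr5:75978456-75978705 (minus) for *Kdr*, chr4:94739039-94739288 (plus) for *Tek* and chr13:113209409-113209658 (plus) for *Esm1*.
Flt1: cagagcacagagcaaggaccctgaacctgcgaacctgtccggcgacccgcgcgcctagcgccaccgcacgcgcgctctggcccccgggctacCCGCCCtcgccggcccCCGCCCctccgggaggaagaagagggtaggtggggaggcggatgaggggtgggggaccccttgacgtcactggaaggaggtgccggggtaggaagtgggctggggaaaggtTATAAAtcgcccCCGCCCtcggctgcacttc
Kdr: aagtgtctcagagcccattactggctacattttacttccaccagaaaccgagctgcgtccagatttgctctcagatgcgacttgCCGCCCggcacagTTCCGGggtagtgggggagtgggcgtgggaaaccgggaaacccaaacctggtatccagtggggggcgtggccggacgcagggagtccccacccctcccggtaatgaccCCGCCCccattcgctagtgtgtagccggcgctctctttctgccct
Tek: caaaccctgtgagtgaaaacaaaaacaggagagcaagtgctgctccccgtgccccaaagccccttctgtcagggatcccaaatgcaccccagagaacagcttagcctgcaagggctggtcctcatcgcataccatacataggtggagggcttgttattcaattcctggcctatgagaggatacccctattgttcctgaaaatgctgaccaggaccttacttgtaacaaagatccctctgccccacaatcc
Esm1: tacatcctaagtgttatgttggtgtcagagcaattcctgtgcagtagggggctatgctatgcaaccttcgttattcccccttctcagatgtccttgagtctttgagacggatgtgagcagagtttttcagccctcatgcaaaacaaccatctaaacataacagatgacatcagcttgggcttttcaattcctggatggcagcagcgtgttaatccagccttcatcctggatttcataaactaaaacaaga
The *Flt1* window held 3 GC boxes and a TATA box that begins 31 bases before the start, and 70.4% of its bases were G or C. The *Kdr* window held 2 GC boxes and 1 ETS core, with 61.6% G or C. The *Tek* and *Esm1* windows held 0 matches to these letters, with 51.2% and 44.0% G or C. Of all 32851 mouse windows of this length, 32.7% held the GC box, 12% the ETS core, 16.6% the hypoxia core, 12.4% the TATA box and 13% the E-box, and the median share of G and C was 52.4%. The matches are a description of these letters and not of binding.

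*Vegfa* (chr17:46016993-46032369, minus strand), the ligand, was at 47.6, 51.9, 54.4 and 69.02 CPM in BF BSHlow NT and at 53.8, 86.7, 113 and 39.8 CPM in T, so that the tumors lay on both sides of NT. In BF BSHhigh mice it was at 55.4, 57.8, 49.1 and 54.00 CPM in NT and at 51.2, 45.4 and 87.8 CPM in T, where only tumor c was above NT. The difference passed the test for neither strain (log2 fold change 0.37, SE 0.27, adjusted p = 0.251, and log2 fold change 0.18, SE 0.30, adjusted p = 0.634). *Vegfa* is expressed by many cell types, epithelium included. Of 9 hypoxia response genes tested, 3 were higher and 3 lower in BF BSHlow T (median −0.06), with *Pfkfb3* (1.74) and *Ndrg1* (0.90) at the top and *Ankrd37* (−1.42) and *Pdk1* (−0.97) at the bottom, and in BF BSHhigh T 1 was higher and 2 lower (median −0.24).

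*Lyve1* (chr7:110850607-110863239, minus strand), the lymphatic marker, went the other way. It was at 19.9, 24.3, 25.96 and 24.4 CPM in BF BSHlow NT and at 15.2, 22.8, 3.81 and 13.9 CPM in T, where tumor replicate 2 reached the level of NT and tumor replicate 3 had the lowest value. In BF BSHhigh mice it was at 13.4, 19.2, 15.9 and 18.8 CPM in NT and at 6.41, 5.89 and 7.01 CPM in T, all tumors below all NT samples. The BF BSHhigh tumors were 2.62-fold lower (log2 fold change -1.39, SE 0.39, adjusted p = 0.00768), and the BF BSHlow difference did not pass the test (log2 fold change -0.78, SE 0.35, adjusted p = 0.059). It passed without tumor replicate 2 (−1.13, adjusted p = 0.0099 in edgeR), without tumor replicate 3 (−0.48, adjusted p = 0.0311), with DESeq2 (adjusted p = 0.0334) and with limma-voom (adjusted p = 0.0183). Among 7 tested genes of resident macrophages, some of which also express *Lyve1*, 4 were lower in BF BSHlow T (median −2.25) and 3 in BF BSHhigh T (median −2.46), with a summed level of 28.1 to 118 CPM in NT and 48.3 to 128 CPM in T. Their part in the *Lyve1* values was not tested.

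Whether the tumor difference itself depended on the strain was tested as an interaction. For 0 of the 10 genes did it pass in edgeR, where 0.991% of all genes were called, and 0 had an unadjusted p under 0.05, against 9.6% of all genes. DESeq2 called 0 of the 10, and limma-voom called 0 of all genes, which says nothing about the 10. The interaction of *Esm1* was the largest in size (log2 -2.37, SE 1.12, unadjusted p = 0.0532, adjusted p = 0.531). It was −3.32 without tumor c, −3.29 without BF BSHlow NT replicate 4, −1.77 without BF BSHlow tumor replicate 3 and −1.36 without BF BSHhigh NT replicate 1, and passed in none of these. For *Angpt2* it was 0.13 (SE 0.39), and for *Cdh5* 0.04 (SE 0.35). For *Lyve1*, which was called in 1 strain only, the interaction was -0.61 (SE 0.51, adjusted p = 0.81), so that a difference between the strains was not shown.

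The other genes of vessels, in lists that hold none of the 10 genes, give the setting. Of 20 pan-endothelial genes 14 were higher and 1 lower in BF BSHlow T (median 1.05), and 12 were higher and 1 lower in BF BSHhigh T (median 1.08). The endothelial transcription factor *Sox17* (5.91) and *Ecscr* (3.10) had the largest log2 fold changes for BF BSHlow, and *Clec14a* (−1.93) and *Cd34* (−0.47, not passing the test) the smallest. *Sox17*, also known from the epithelium of early intestinal tumors, had means of 1.18 CPM in BF BSHlow NT and 73.0 CPM in T. Of 14 genes of VEGF and angiopoietin signalling 9 were higher and 2 lower for BF BSHlow (median 1.03), and 7 were higher and 2 lower for BF BSHhigh (median 0.99). *Pgf*, the placental growth factor, which binds VEGFR1 and not VEGFR2, was at the top (5.35, with means of 0.448 CPM in NT and 19.0 CPM in T). Next to it was *Vash2* (4.92), an angiogenesis regulator, and *Vegfd* (−1.75) and *Nrp2* (−0.75), a ligand and a co-receptor of the lymphatic pathway, were at the bottom. In BF BSHlow mice *Nrp2* had means of 73.5 CPM at 2 weeks and 73.9 CPM in NT, without the rise over time of most pan-endothelial genes. Which cells its RNA came from was not tested. *Tie1* is in both of these lists. *Vegfc*, the other lymphatic ligand, was higher in BF BSHlow T (0.99) and did not pass the test in BF BSHhigh T (0.04).

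Of 12 genes of tip cells and angiogenic endothelium 8 were higher and 1 lower for BF BSHlow (median 1.09), and 7 were higher and 1 lower for BF BSHhigh (median 1.05). *Apln* (4.54), a peptide of tip cells, and *Pdgfb* (2.92), which recruits pericytes, were at the top, and *Unc5b* (−1.32) and *Adm* (0.57, not passing the test) at the bottom. *Unc5b*, with BF BSHlow means of 162 CPM at 2 weeks and 152 CPM in NT, did not rise over time either. Of 7 capillary genes tested 1 was higher and 4 lower for BF BSHlow (median −0.80), and 2 were higher and 2 lower for BF BSHhigh (median −0.18). *Rgcc* (0.85) and *Gpihbp1* (0.69, not passing the test) were at the top, and *Car4* (−10.56), which colonocytes also express, and *Cd36* (−1.93) at the bottom. Of 8 artery genes 2 were higher and 3 lower for BF BSHlow (median −0.49) and 2 were higher and 2 lower for BF BSHhigh (median 0.10), with the Notch target *Hey1* (3.35) and *Gja5* (0.57, not passing the test) at the top and *Bmx* (−1.91) and *Cxcl12* (−1.72) at the bottom. Of 8 genes of veins and activated endothelium 3 were higher and 2 lower for BF BSHlow (median 0.66), and 4 were higher and 0 lower for BF BSHhigh (median 0.75). For BF BSHlow the adhesion molecule *Icam1* was higher (1.97), *Sele* had means of only 0.0627 CPM in NT and 0.384 CPM in T, and *Ackr1* (−2.21) and the venule addressin *Madcam1* (−2.12) were lower. In BF BSHhigh mice *Ackr1* (0.28) and *Madcam1* (0.83) did not pass the test, and neither did their interactions (2.50, adjusted p = 0.226, and 2.96, adjusted p = 0.063, in edgeR).

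Of 8 lymphatic genes besides *Lyve1*, 3 were higher and 2 lower for BF BSHlow (median −0.41), and 3 were higher and 3 lower for BF BSHhigh (median −0.80). *Prox1* (5.87) and *Tbx1* (5.17) were at the top, and *Stab2* (−3.04), a scavenger receptor, and *Ccl21a* (−2.35), a chemokine of lymphatic vessels, at the bottom. *Prox1*, the regulator of lymphatic identity, is also known from Wnt-driven tumor epithelium, and it was at 294 CPM in BF BSHlow T. The receptor *Flt4*, VEGFR3, did not pass the test (0.24 and −0.04). Of 7 pericyte genes tested 3 were higher and 1 lower for each strain (medians 0.45 and 0.24), with *Ndufa4l2* (2.39) and *Notch3* (2.01) at the top and *Abcc9* (−0.75) and *Cspg4* (−0.03, not passing the test) at the bottom. Their summed level was 109 to 229 CPM in NT and 180 to 256 CPM in T.

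**Figure D3:**
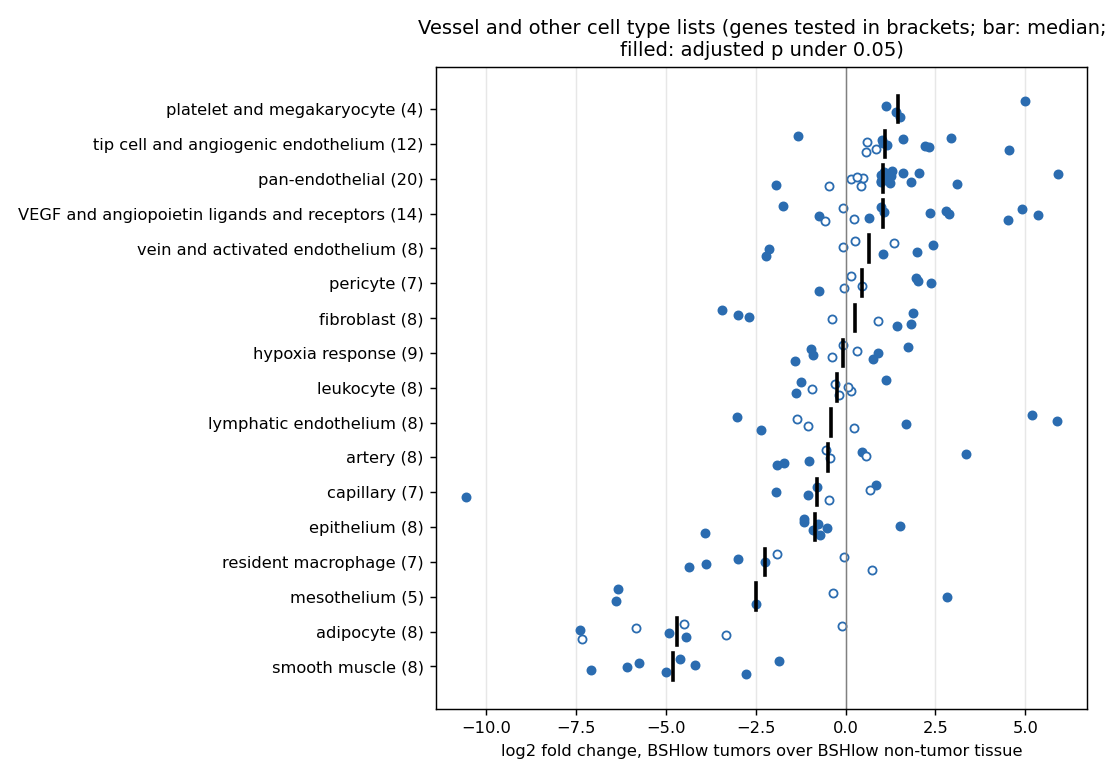
Log2 fold change of BF BSHlow T over NT for each tested gene of 17 lists, with bars at the medians and filled points where the adjusted p was under 0.05. The pan-endothelial, VEGF and angiopoietin, and tip cell lists have medians between 1.03 and 1.09, and the smooth muscle list has a median of −4.80.

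The lists of other cells moved as follows with tissue. Of 8 epithelial genes 7 were lower and 1 higher in BF BSHlow T (median −0.84), and 5 were lower and 1 higher in BF BSHhigh T (median −0.66), with a summed level of 9515 to 12847 CPM in NT and 4652 to 8267 CPM in T. Of 8 fibroblast genes 3 were higher and 3 lower in each strain, with 237 to 1822 CPM in NT and 900 to 2274 CPM in T. Of 8 leukocyte genes 1 was higher and 2 lower for BF BSHlow, and 1 was higher for BF BSHhigh. Of 5 mesothelial genes tested 1 was higher and 3 lower for BF BSHlow and 2 lower for BF BSHhigh, and of 8 adipocyte genes 3 and 4 were lower, with *Adipoq* at 0 counts in all BF BSHlow tumors. Of 4 tested genes of platelets, some of which endothelium shares, 4 were higher for BF BSHlow and 1 for BF BSHhigh. The part of these lists in the vessel results was not tested.

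**Figure D4:**
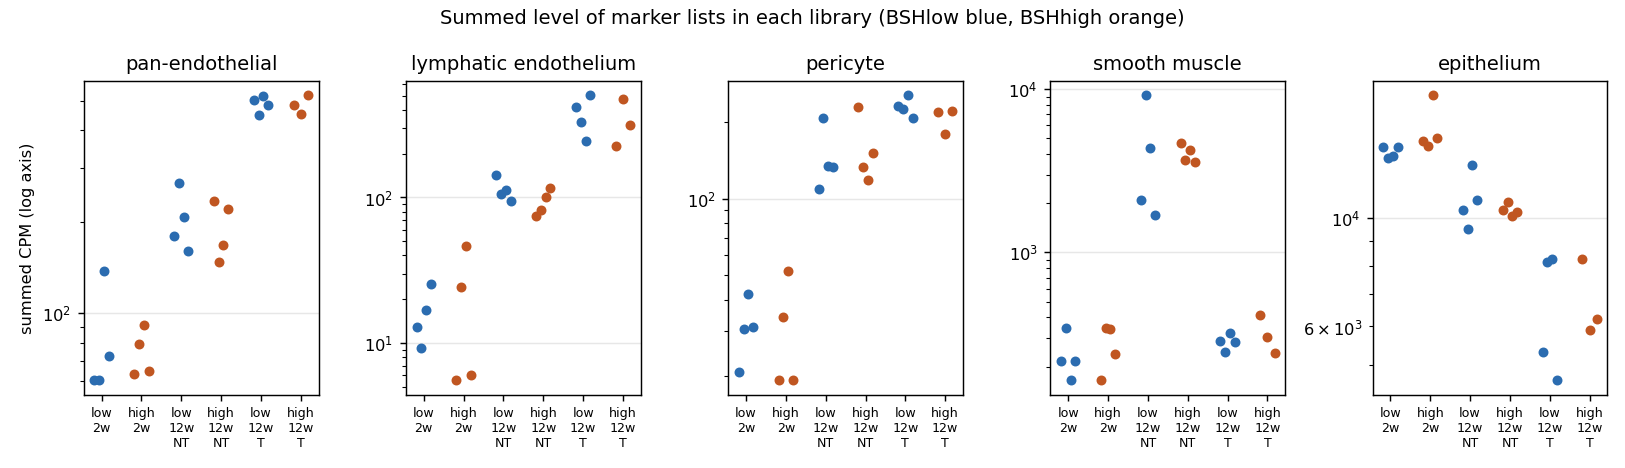
Summed CPM (log axis) of the pan-endothelial, lymphatic, pericyte, smooth muscle and epithelial lists in each library, by group. The lymphatic sum in T is mostly *Prox1*, with means of 294 CPM (BF BSHlow) and 278 CPM (BF BSHhigh). In NT its means were 4.93 and 4.03 CPM, and the median log2 fold changes of the list were −0.41 and −0.80. Pan-endothelial sums lie in the order 2 weeks, NT and T without overlap, whereas smooth muscle is highest in NT, at 1702 to 9169 CPM. The median of the pan-endothelial genes, centred per gene, does overlap between 2 weeks and NT. It was at −0.002 in BF BSHlow replicate 3 of 2 weeks and at −0.095 in BF BSHhigh NT replicate 2. The pan-endothelial sums in T rest in part on *Sox17* and *Ecscr*.

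To compare the genes with the endothelium as a whole, each was set against the median of the 20 pan-endothelial genes in the same library, after centring every gene on its mean over the 23 libraries. *Plvap* moved with that median: the difference between T and NT was 0.02 log2 units in BF BSHlow mice and −0.18 in BF BSHhigh mice, with overlapping groups. *Cdh5* (1.25 and 1.24), *Angpt2* (3.14 and 3.06) and, for BF BSHlow, *Esm1* (3.48) were above it in T without overlap. *Esm1* in BF BSHhigh mice (1.05) and *Flt1* (0.77 and 0.41) overlapped between T and NT. *Tek* (−0.84 and −0.80), *Lyve1* (−2.05 and −2.50) and *Pecam1* (−0.37 and −0.38) were below it without overlap. *Kdr* was at −0.61 and −0.49, overlapping in both strains, and *Vegfa* at −0.75, overlapping, and −1.02, not overlapping. With the mean in place of the median, or without *Sox17*, *Ecscr* and *Clec14a*, each difference kept its sign except that of *Plvap* for BF BSHlow, which was −0.11 with the mean. The pan-endothelial genes themselves rose in T, with median log2 fold changes of 1.05 and 1.08, where the median of all genes tested was 0.04. A gene that does not change between the tissues therefore falls below them in T. A negative value here does not by itself show a loss within the endothelium. The share of all genes without overlap on this scale was not computed. The relative levels are a description and carry no test.

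**Figure D5:**
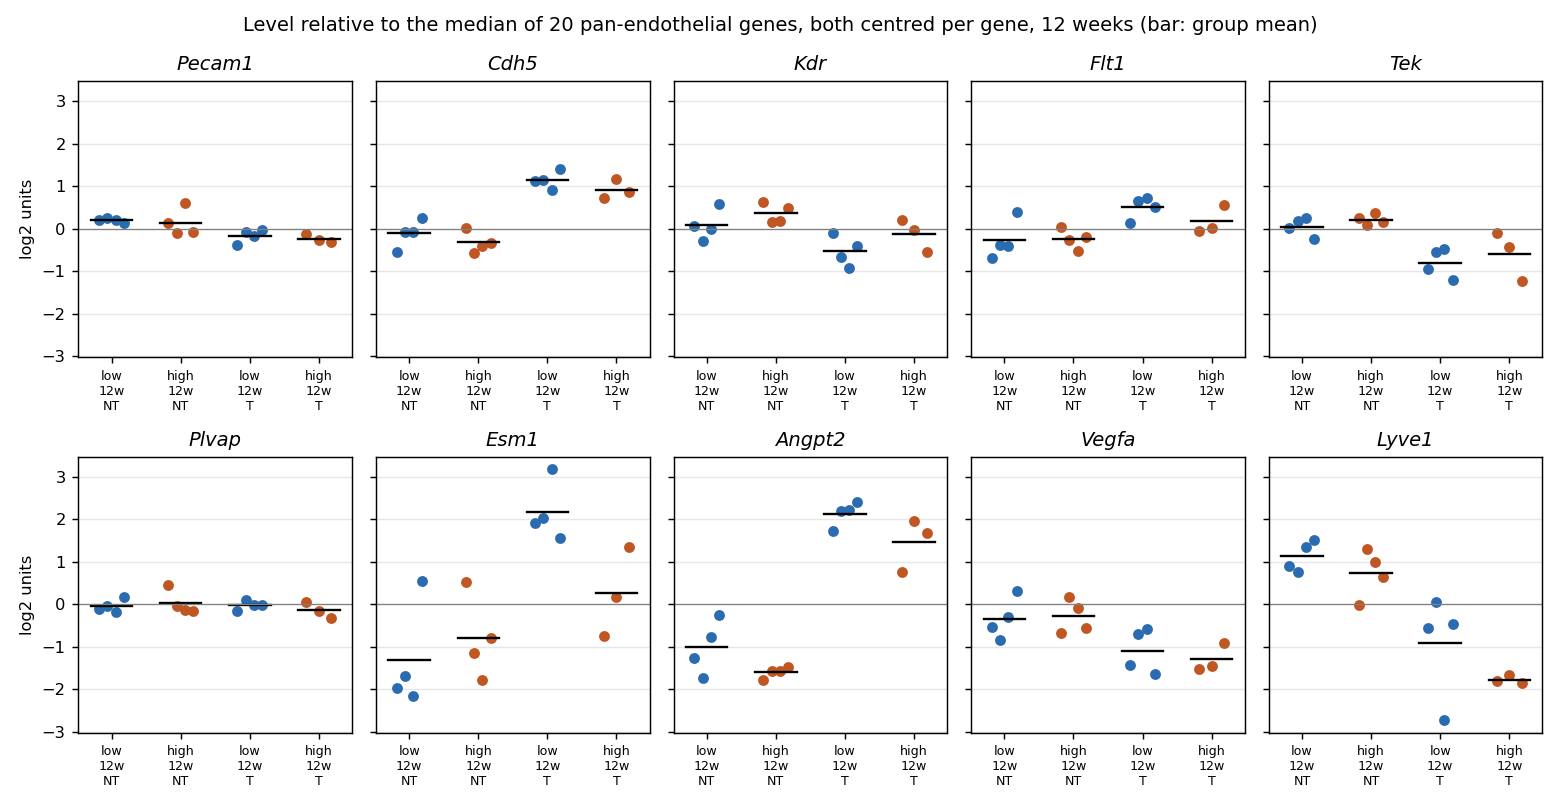
Log2 level of each of the 10 genes relative to the median of 20 pan-endothelial genes, centred per gene, in the 15 libraries of 12 weeks, with bars at the group means. *Plvap* stays near 0 in all groups, while *Angpt2* and *Cdh5* lie higher and *Lyve1* and *Tek* lower in T than in NT. The reference itself is higher in T, so a gene that does not change lies lower in T.

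The effect of BF BSHhigh on vessel genes was asked within tumors, NT tissue and 2-week colon, comparisons that share libraries with those above. In tumors 0 of the 10 genes passed in edgeR, where 0.509% of all genes were called. That share rested on single libraries, since 78 genes became 254 without tumor c and 0 to 6 without any other tumor. At an unadjusted p under 0.05 there were 2 genes, *Esm1* and *Angpt2*, both lower in BF BSHhigh, against 12.7% of all genes. DESeq2, which called 4.84% of all genes, called 1, *Esm1* (adjusted p = 0.0419), and limma-voom called 0. *Esm1* had a mean of 30.1 ± 20.9 CPM (SD, n = 4) in BF BSHlow T and 8.61 ± 7.27 CPM (SD, n = 3) in BF BSHhigh T, where tumor c overlapped the BF BSHlow tumors (log2 fold change -1.81, SE 0.66, adjusted p = 0.298 in edgeR). The log2 fold change was −2.77 without tumor c and −1.22 without BF BSHlow tumor replicate 3, passing in neither case. *Angpt2* had a mean of 61.99 ± 11.8 CPM (SD, n = 4) in BF BSHlow T and 40.6 ± 14.7 CPM (SD, n = 3) in BF BSHhigh T, with overlap (log2 fold change -0.62, SE 0.26, adjusted p = 0.382 in edgeR). *Cdh5* was lower in every BF BSHhigh tumor than in every BF BSHlow tumor, by a small margin (log2 fold change -0.22, SE 0.10, adjusted p = 0.405 in edgeR), and *Lyve1* overlapped through BF BSHlow tumor 3 (log2 fold change -1.12, SE 0.50, adjusted p = 0.408). The 6 others had log2 fold changes between -0.30 (*Flt1*) and 0.38 (*Kdr*) and adjusted p-values of at least 0.532. The 20 pan-endothelial genes had log2 fold changes between −0.58 and 0.87 (median −0.13), and none passed. Of the vessel genes in the lists, *Madcam1* was the only one that passed in edgeR, with means of 0.614 CPM in BF BSHlow T and 4.72 CPM in BF BSHhigh T (log2 fold change 2.91, SE 0.39, adjusted p = 0.0365). That call was lost without BF BSHlow tumor replicate 1, 3 or 4, each of which left 0 genes called in edgeR.

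In NT tissue at 12 weeks 0 of the 10 genes passed in edgeR, and 0% of all genes were called, though DESeq2 called 194 genes, 0 of the 10 among them. Of all genes, 1377 (9.22%) had an unadjusted p under 0.05 in edgeR. Among the 10 genes 2 did, *Lyve1* and *Angpt2*, both lower in BF BSHhigh, and limma-voom called 0 of all genes. *Lyve1* was below BF BSHlow in all BF BSHhigh samples (23.7 ± 2.59 CPM (SD, n = 4) and 16.8 ± 2.73 CPM (SD, n = 4); log2 fold change -0.50, SE 0.14, adjusted p = 0.372 in edgeR). *Angpt2* overlapped (log2 fold change -0.72, SE 0.28, adjusted p = 0.504).

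In normal colon at 2 weeks 0 of the 10 genes passed in edgeR, DESeq2 or limma-voom, where edgeR called 0.00727% of all genes. At an unadjusted p under 0.05 in edgeR there were 2, *Flt1* and *Tek*, both lower in BF BSHhigh, against 6.8% of all genes. *Tek* was at 1.52, 1.92, 6.16 and 2.602 CPM in BF BSHlow and at 1.36, 1.62, 1.48 and 1.28 CPM in BF BSHhigh (log2 fold change -1.07, SE 0.43, adjusted p = 0.713). *Flt1* was at 1.97, 3.92, 13.6 and 7.73 CPM and at 3.09, 2.65, 4.16 and 1.44 CPM (log2 fold change -1.26, SE 0.54, adjusted p = 0.725). In both genes BF BSHlow replicate 3, the sample that stood apart in its pan-endothelial genes, had the highest value.

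Last, NT tissue at 12 weeks was compared with normal colon at 2 weeks, over both strains. In edgeR 8 of the 10 genes were higher at 12 weeks and 0 lower, where 63.2% of all genes were called and 33% were called higher. With an absolute log2 fold change over 1 asked for as well, 7 were called, against 26.5% of all genes. The median log2 fold change of the 10 genes was 1.53, and that of all 15532 genes tested was 0.01. These tissues differ in time on diet and colonization, and tumor-bearing colon was sampled only at 12 weeks, which cannot be told apart.

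*Lyve1* showed the largest difference. It was at 2.65, 1.75, 2.94 and 3.73 CPM in BF BSHlow and 2.54, 3.46, 7.27 and 3.205 CPM in BF BSHhigh at 2 weeks, below every NT sample, whose lowest value was 13.4 CPM. At 12 weeks it was 5.86-fold higher (log2 fold change 2.55, SE 0.20, adjusted p = 4.53e-08 in edgeR). *Cdh5* was at 1.06, 1.17, 8.998 and 2.67 CPM in BF BSHlow and 1.18, 2.35, 3.86 and 0.721 CPM in BF BSHhigh at 2 weeks, and the NT samples overlapped only with BF BSHlow replicate 3 (log2 fold change 2.06, SE 0.43, adjusted p = 0.000588). *Pecam1* was at 5.38, 5.08, 23.2 and 10.1 CPM and 8.899, 8.904, 10.5 and 3.28 CPM at 2 weeks, again with only replicate 3 of BF BSHlow in the range of NT (log2 fold change 1.86, SE 0.30, adjusted p = 7.31e-05).

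The receptors *Kdr* (1.65, adjusted p = 0.00277), *Flt1* (1.54, adjusted p = 0.000896) and *Tek* (1.495, adjusted p = 0.000199), and *Plvap* (1.51, adjusted p = 0.00339), were higher at 12 weeks by similar amounts. *Angpt2* was at 1.67, 1.92, 1.99 and 0.914 CPM and 0.726, 1.77, 0.965 and 1.36 CPM at 2 weeks and was higher at 12 weeks by less (log2 fold change 0.89, SE 0.23, adjusted p = 0.00356). *Esm1* (log2 fold change 1.19, SE 0.59, adjusted p = 0.0895) did not pass, with 2 to 20 counts per library at 2 weeks. *Vegfa* was at 51.9, 45.01, 53.3 and 38.5 CPM and 69.6, 37.2, 47.9 and 41.9 CPM at 2 weeks and did not pass either (log2 fold change 0.19, SE 0.12, adjusted p = 0.18), but passed without BF BSHhigh replicate 1 of 2 weeks (0.30, adjusted p = 0.0136). Each of the 8 calls held when any 1 library was left out.

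In the same comparison 18 of 20 pan-endothelial genes were higher and 1 lower (median 1.95), 7 of 7 tested lymphatic genes were higher (median 2.49) and 6 of 6 tested pericyte genes were higher (median 2.26). So were 8 of 8 smooth muscle genes (median 5.24), 8 of 8 fibroblast genes (median 3.34), 8 of 8 leukocyte genes (median 1.79) and 7 of 7 tested resident macrophage genes (median 3.37). Other lists did not rise as a whole. Of 8 epithelial genes 1 was higher and 5 lower (median −0.47), and of 8 adipocyte genes 0 were higher and 2 lower (median −0.56). Of 7 tested capillary genes 3 were higher and 2 lower, and of 8 artery genes 5 were higher and 2 lower. The summed smooth muscle level was 164 to 345 CPM at 2 weeks and 1702 to 9169 CPM in NT. How much of the wall of the colon each sample held was not tested.

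The genes most like each of the 10 over the 23 libraries were those with the smallest mean absolute difference of log2 CPM after centring, among 14399 genes with a mean of at least 1 CPM. For *Pecam1* they were *Plvap* (0.24), *Esam* (0.27) and *Tmem204* (0.28), where the median gene was at 1.13. For *Plvap* they were *Adgrf5* (0.24), *Pecam1* (0.24) and *Esam* (0.26), and for *Flt1* *Adgrf5* (0.30), *Robo4* (0.32) and *Egfl7* (0.34). *Kdr* was nearest to *Nkx2-3* (0.27), *Ptprb* (0.30) and *Plvap* (0.33), *Cdh5* to *Ppic* (0.30), *Arhgef17* (0.32) and *Eng* (0.35), and *Tek* to *Nrp1* (0.25), *Arhgef15* (0.32) and *Akr1b10* (0.34). *Vegfa* was nearest to the glycolytic genes *Gapdh* (0.18), *Eno1* (0.19) and *Pgk1* (0.20), where the median gene was at 0.50. *Angpt2* was nearest to *Mex3a* (0.38), *Dyrk3* (0.38) and *Gm12602* (0.40), *Lyve1* to *Il6ra* (0.44), *Aatk* (0.45) and *Il34* (0.46), and *Esm1* to *Smoc1* (0.68), *Apln* (0.69) and *Ereg* (0.70). The libraries share their tissue composition, so these are descriptions.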

How the data were processed

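RNA-seq was analysed in 23 libraries. The deposited values are expected counts of genes, estimated by the authors with RSEM after trimming (Cutadapt) and alignment to mm10 (STAR), without normalization. Picard is also listed in the submitters' processing notes. Tool versions, and the strand setting of the counting, are not given in the sources used here. The labels name a stranded total RNA kit and the methods a stranded mRNA kit. Of the values, 4.24% are not whole, and none of those of the 10 genes. A blank row and *Fgf6*, with text in a cell, were left out. 3 columns whose headers repeat names of BF BSHlow tumors were taken as BF BSHhigh tumors, because a supplementary table lists their values under that group.

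The rounded counts were analysed in R 4.3.3 by edgeR 4.0.16, quasi-likelihood test (TMM, filterByExpr, Benjamini-Hochberg over all genes, threshold 0.05). Log2 CPM used a prior count of 2, and exon lengths and positions came from GENCODE M21 (GRCm38). Tumor comparisons and the interaction used 15 libraries, strain comparisons their 2 groups, and the time comparison 16. Between replicates, chi-square per degree of freedom was 16.6 to 126 in 33 pairs, so none was merged. The members and the 17 lists were chosen with earlier results of these data known. Named were the 10 genes, the 2 largest and 2 smallest BF BSHlow tumor log2 fold changes of vessel and hypoxia lists (other lists as counts), and the 3 most alike genes. A few other genes of the lists were named beside them. Alternatives were DESeq2 1.42.0, limma-voom (limma 3.58.1), RLE, library totals, other filters, a fold limit of 1 (log2), all 23 libraries in 1 fit, the replicate number as a block, and each library left out in turn. On simulated counts for tumor against non-tumor in BF BSHlow (16121 genes), 79 of 98 genes with a log2 change of 2 and 59 of 96 with 1 were recovered, and for tumors between strains (15074 genes) 77 of 101 and 37 of 94, with 8 unchanged genes called. Only the genes counted here were changed. In the data, 65.5% of all genes were called for tumor against non-tumor in BF BSHlow, so the shares for that comparison describe the simulated setting only. Tables and plots used Python 3.11.15, pandas 2.3.3 and matplotlib.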

Additional observations from a re-analysis of the deposited data

Results flagged for a closer look

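In groups of 4 libraries, 50 sets of values of the 10 genes were checked with Dixon's criterion for 1 sample far from the others, which chance meets in about 1 of 20, and 2 met it. *Kdr* in BF BSHlow tumor replicate 1 was at 22.95 CPM, and the other 3 tumors were at 14.8 to 15.7 CPM. *Pecam1* in BF BSHhigh replicate 4 of 2 weeks was at 3.28 CPM, and the other 3 samples were at 8.90 to 10.5 CPM. The group of 3 BF BSHhigh tumors was not checked.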

How the results depend on the processing

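The number of the 10 genes called stayed within 1.5 times the main count in all alternatives except DESeq2 in tumors between strains, which called 1 gene in place of 0, and the cause was not tested. Leaving out each library gave 6 to 7 calls for tumors in BF BSHlow mice, 6 to 8 in BF BSHhigh mice, 8 to 9 over time, and 0 in the 4 other comparisons. With 23 libraries in 1 fit the tumor counts were 4 and 5, and with the fold limit 5 and 5. Under library totals without further scaling, the median of all genes moved to 0.37 and 0.35 for tumors and 0.27 over time, calls for tumors in BF BSHlow mice split into 7727 higher and 3807 lower in place of 5485 and 5299, and *Kdr* (0.78 and 0.88) and *Vegfa* in BF BSHlow (0.69) passed in tumors. Over all genes, calls between strains in tumors were 78 in edgeR, 741 with DESeq2, 43 with limma-voom, 344 without a filter and 806 in the fit of 23, and the interaction had 163 (88 to 106 without 1 BF BSHhigh NT library, 101 without BF BSHlow tumor 4, 90 without tumor a and 370 without tumor c), 423 with DESeq2, 0 with limma-voom and 273 in the fit of 23. In NT tissue DESeq2 called 194 in place of 0, and at 2 weeks 52 in place of 1 (43 in edgeR without BF BSHlow replicate 4, 1 without replicate 2 and 0 without any other library). With the fold limit, tumor calls over all genes fell from 10784 to 5956 and from 9313 to 4831, and those over time from 9809 to 4113. The replicate block called 6 of the 10 genes for BF BSHlow tumors, 8 over time and 0 between strains in NT tissue and at 2 weeks, as without it. Same-numbered NT and T samples of BF BSHlow correlated at −0.12 to 0.19 in their deviations from the group means. NT replicates 1 and 4 correlated most with the tumor of their own number, and NT replicates 2 and 3 did not. With 4 samples per group this cannot decide whether the numbers pair the samples. The columns of the BF BSHhigh tumors carry numbers of BF BSHlow tumors, so no pairing was made there. *Esm1* at 2 weeks rests on 2 to 20 counts per library.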
